A study of Sus scrofa with 15 samples.

Results

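Membrane transporters and ion channels were taken as all probe sets whose only gene symbol starts with SLC, ABCA to ABCG, ATP and a digit, KCN, CACN, SCN and a digit, CLCN or AQP. SLC2A1, SLC2A5, SLC27A6 and KCNJ8 were left out by the same rule. Of the 3255 probe sets tested, 53 probe sets of 43 genes (of 1260 genes named in all) remained, after 5 probe sets of those 4 genes had been left out. They were 34 probe sets of 29 solute carriers, 9 of 6 ABC transporters, 6 of 5 ATP pumps and lipid flippases, 2 of the aquaporin AQP1, 1 of the potassium channel subunit KCNMB1 and 1 of the calcium channel subunit CACNA2D1. No probe set of a sodium channel or a chloride channel fell under the rule. The symbol does not always match the function, as SLC2A4RG is a transcription regulator named after the glucose transporter gene it acts on. ATP5L is an older symbol of a subunit of the mitochondrial ATP synthase. Without SLC2A4RG, the count was 52 probe sets of 42 genes.

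Solute carriers move amino acids, sugars, metals, vitamins and metabolites across cell and organelle membranes along existing gradients, or coupled to ions. ABC transporters and P-type pumps spend ATP to move lipids, drugs and ions, and channels and aquaporins open a path for ions or water. In fat, such proteins take up glucose, amino acids and carnitine and export cholesterol, and the tissue also holds vessels, nerves and immune cells with transporters of their own.

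The samples were backfat, a subcutaneous depot, of 15 castrated male Iberian pigs, a breed that deposits much fat, with 1 Affymetrix porcine array per animal. The 7 control animals received a standard diet and the 8 others a high-oleic diet, from 28 kg live weight until slaughter at about 110 kg, over 24 weeks. Rations supplied equal energy and protein, which took a larger quantity of the control feed, and the labels name the inner layer of the fat as the tissue. The comparison asks how feeding oleic acid bears on expression in this tissue.

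The deposited values were log2 signals between 1.49 and 14.36, with array medians from 6.39 to 6.67, and with 15 arrays the precision is limited by their number. In every probe set, the 3rd largest deviation from its own median was at least 1.5-fold, so only probe sets with some spread are described. Live weight at slaughter was 117.2 ± 7.32 kg (SD, n = 7) on the control diet and 109.2 ± 3.52 kg (SD, n = 8) on the high-oleic diet. A signal depends on the probe set as well as on the transcript, so levels were not ranked as amounts between genes. Of 13 adipocyte markers listed, 3 were measured (LEP, PNPLA2 and RBP4), with mean log2 signals of 11.53, 8.74 and 9.08. Bulk tissue cannot tell fewer cells of a type from less RNA per cell.

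No transporter or channel passed the test between diets. On the high-oleic diet 27 of the 53 probe sets had a higher mean and 26 a lower one (12 of these signs turned between 109.5 and 118 kg of live weight, and 11 once live weight was a covariate), and the median difference was 0.0043 on the log2 scale, against -0.03 over all probe sets tested. At an unadjusted p under 0.05, limma placed 0 of the 53, beside 128 of all 3255 probe sets (3.93%). After Benjamini-Hochberg adjustment it placed 0 of the 53 and 0.0% of all, and the adjusted p was 0.999 for each of the 53. The smallest unadjusted p among them was 0.169. The median size of the difference was 0.21 for the transporters and channels and 0.19 for all probe sets. In no transporter or channel did the 2 diets fail to overlap, which happened in 1 probe set of the table (0.0307%).

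For 45 of the 53 (84.9%), both ends of the 95% interval of the diet difference were under 2-fold, beside 74.4% of all probe sets. For these 45, a change of more than 2-fold lay outside the interval, whereas for the other 8 it did not. By family, the median difference was 0.02 for the solute carriers (19 higher, 15 lower), 0.12 for the ABC transporters (6 higher, 3 lower) and -0.12 for the ATP pumps and flippases (2 higher, 4 lower). The 4 probe sets of channels and AQP1 were lower, with a median of -0.23, although the small differences of AQP1 took the other sign with other fits. The median of the solute carriers was -0.033 to 0.088 when leaving out each animal. The medians of the ABC transporters and the ATP pumps took the other sign with another fit, at -0.056 with the signal of added control transcripts in the fit and 0.15 in the 10 animals between 109.5 and 118 kg. No single probe set of any family passed.

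**Figure D1:**
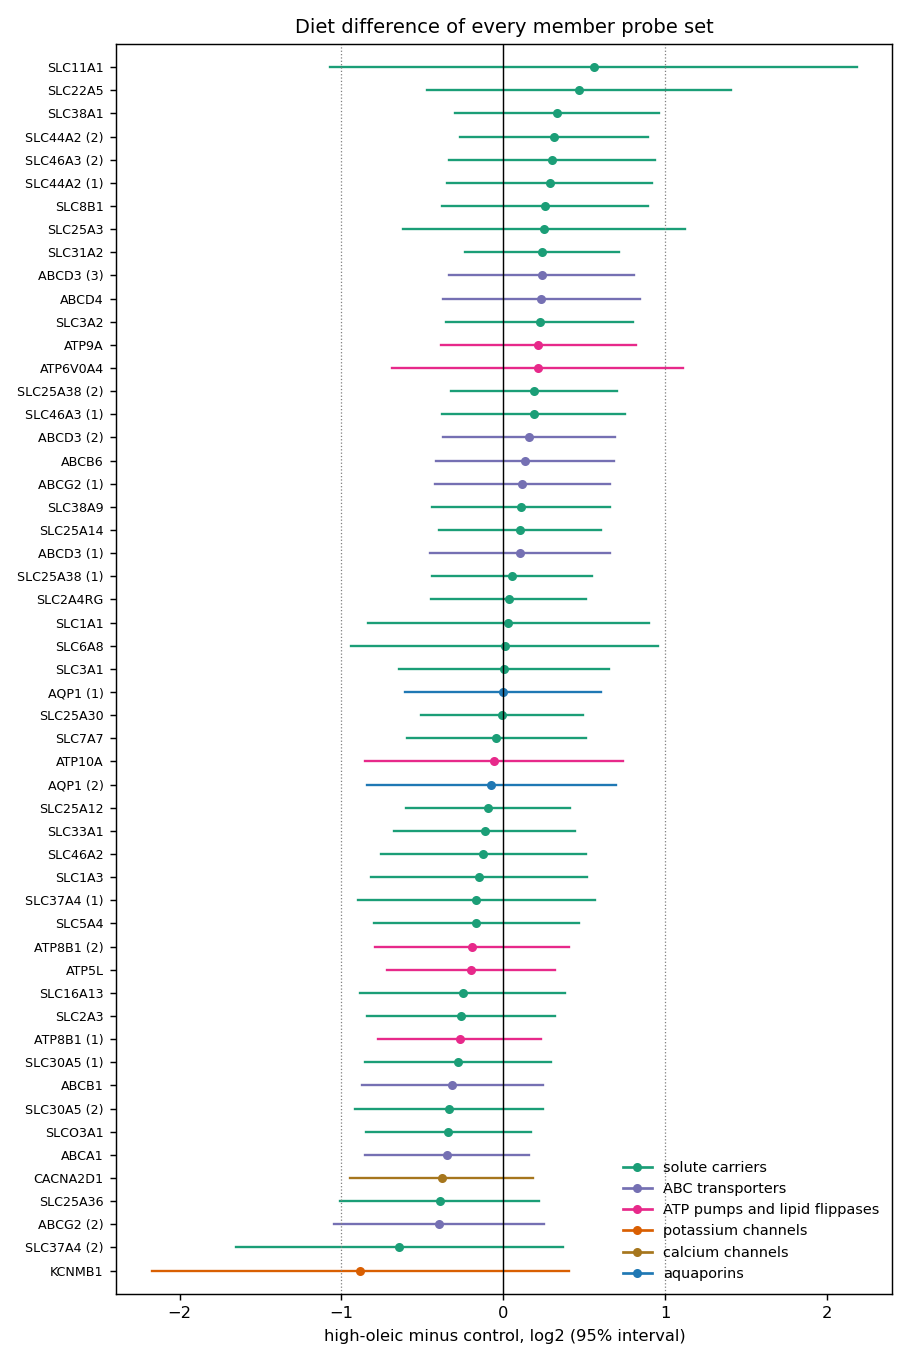
Difference between diets of each of the 53 probe sets of transporters and channels (high-oleic minus control, log2), with points for the limma estimate and lines for the 95% interval, coloured by family. Numbers in brackets order the probe sets of a gene from the brightest to the dimmest, the dotted lines mark 2-fold, and every interval crosses 0.

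The spread between animals on the same diet was much like that of the whole table. The median SD within diets was 0.52 over the 53 probe sets and 0.55 over all probe sets tested. It was 0.55 for solute carriers, 0.48 for ABC transporters and 0.55 for ATP pumps and flippases. The SD exceeded 1 in 5 of the 53 (9.43%), beside 266 of all probe sets (8.17%), a share near that of the table. These 5 were SLC11A1 (1.85), KCNMB1 (1.44), the dimmer probe set of SLC37A4 (1.09), SLC6A8 (1.02) and SLC22A5 (1.01). No ABC transporter and no ATP pump or flippase reached an SD of 1.

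In 8 of the 53 (15.1%), neighbouring animals in the order of signals lay more than 1 log2 unit apart, beside 478 of all probe sets (14.7%). In each of these, 1 to 4 animals stood apart. They belonged to both diets in SLC22A5, ATP10A, SLC11A1, SLC1A1 and SLC25A3, to the control diet in KCNMB1, and to the high-oleic diet in SLC37A4 and ABCG2.

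**Figure D2:**
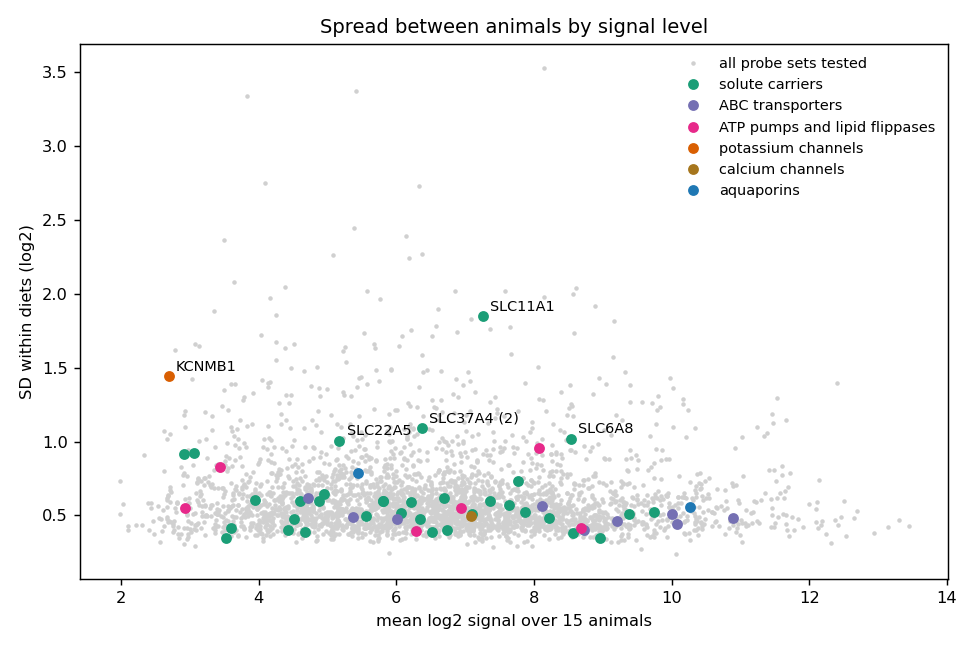
SD within diets against the mean log2 signal over 15 animals, with all 3255 probe sets in grey and the 53 transporters and channels coloured by family. The 5 labelled points are those with an SD over 1, from 1.01 for SLC22A5 to 1.85 for SLC11A1, and they lie among the grey points.

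Amino acid carriers were represented by 7 genes with 1 probe set each, 5 with a higher and 2 with a lower mean in high-oleic animals, and a median difference of 0.03. SLC1A1, a sodium-coupled carrier of glutamate and aspartate, had log2 signals from 2.23 to 4.44 (median 2.38) in control animals and from 2.22 to 4.41 (median 2.59) in high-oleic animals. Its signal was between 4.09 and 4.44 in control animals 3 and 4 and high-oleic animals 3 and 4, and between 2.22 and 2.92 in the 11 others. The animals of the 2 diets thus overlapped over nearly the whole range. The signals of those 11 lay at the low end of all signals (lowest value 1.49).

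SLC3A2, the heavy chain that many amino acid exchangers need to reach the surface, was the named gene most like SLC1A1 over the 15 animals (r = 0.87, a description chosen after the values were seen). Its 4 highest signals were those of the same animals, at 7.94, 7.59, 8.00 and 7.69, and the 11 others lay at 7.16 or below. The next genes by likeness to SLC1A1 were HSPA2, a heat shock protein of the HSP70 family (r = 0.86), and HACD3 (r = 0.73). SLC7A7, a light chain that pairs with SLC3A2 to exchange cationic for neutral amino acids, ranged from 5.45 to 7.15. SLC38A1, a sodium-coupled importer of glutamine and other neutral amino acids, ranged from 4.75 to 6.26 (median 5.77) in controls and from 5.20 to 6.80 (median 5.73) in high-oleic animals. The diets overlapped and the difference was 0.33 (SE 0.30, unadjusted p = 0.286). SLC38A9, the lysosomal arginine sensor of the mTORC1 pathway, lay between 3.71 and 5.23. SLC1A3, another glutamate carrier, lay between 3.31 and 5.81.

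Sugar carriers were 3 genes with 4 probe sets, all 4 with a lower mean in high-oleic animals, a median difference of -0.21 and no p under 0.05. SLC2A3, the facilitative glucose transporter GLUT3, ranged from 9.07 to 10.98 (median 9.92) in controls and from 9.19 to 10.17 (median 9.55) in high-oleic animals. SLC5A4, a member of the sodium-glucose cotransporter family, ranged from 3.97 to 6.06 (median 5.18) and from 3.86 to 5.51 (median 4.74). The diets overlapped in both genes.

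SLC37A4 carries glucose-6-phosphate into the endoplasmic reticulum, where glucose is released from it. Its brighter probe set ranged from 6.88 to 8.97 (median 7.94) in controls and from 6.60 to 8.39 (median 7.88) in high-oleic animals, a difference of -0.17 (SE 0.35). The dimmer probe set ranged from 5.76 to 8.06 (median 6.71) and from 3.88 to 7.22 (median 6.54), a difference of -0.64 (SE 0.49, unadjusted p = 0.200). High-oleic animals 1 and 3 stood below all others there, at 4.58 and 3.88. Both probe sets ordered the animals alike (r = 0.92, rho = 0.97). With live weight in the fit, the differences turned to 0.40 and 0.048, so their direction depended on that choice.

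Metal carriers were 3 genes with 4 probe sets, 2 higher and 2 lower. SLC11A1 (NRAMP1), which pumps iron and manganese out of the phagosomes of macrophages, varied most of all 53 probe sets, with a 70.3-fold range. It ranged from 4.63 to 8.52 (median 7.31) in controls and from 3.86 to 10.00 (median 8.32) in high-oleic animals. Control animal 3 and high-oleic animals 3 and 4 were at 4.63 or below, and the 12 others were at 6.27 or above. The diets overlapped, and the difference of 0.56 (SE 0.78, unadjusted p = 0.482) was smaller than the spread. The 3 low animals for SLC11A1 were among the 4 high ones for SLC1A1.

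SLC30A5, which loads zinc into the secretory pathway, had a brighter probe set between 8.13 and 10.17 and a dimmer one between 6.64 and 8.70, and both were lower on average on the high-oleic diet. SLC31A2, a copper transporter of endosomal and lysosomal membranes, lay between 2.86 and 4.36.

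**Figure D3:**
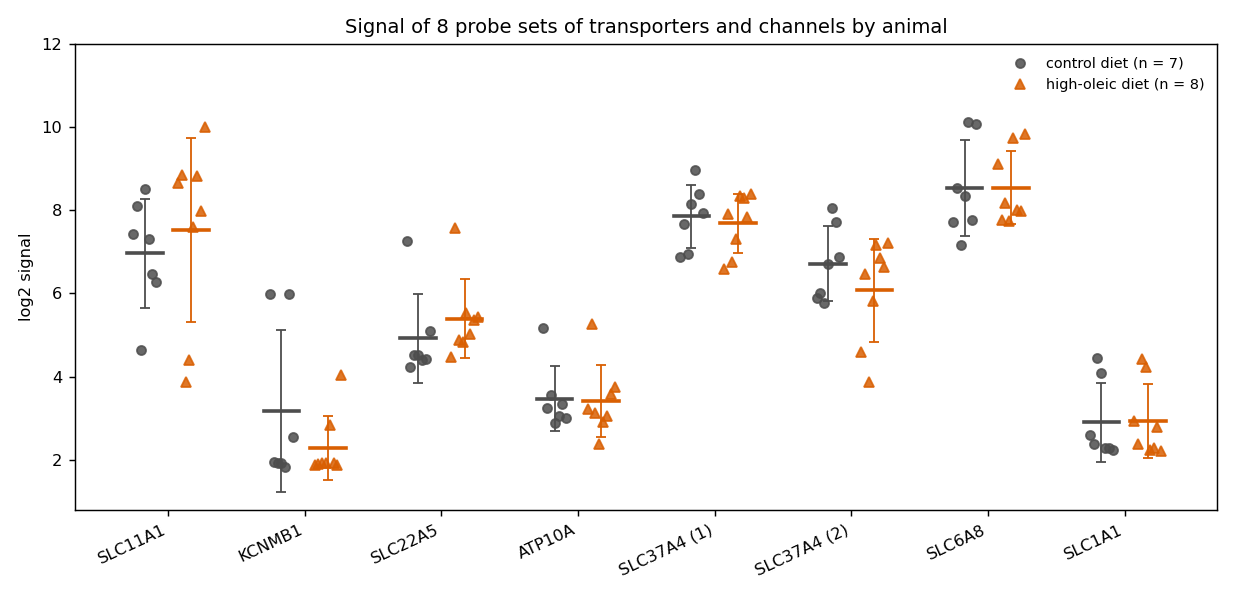
Log2 signal per animal for 8 probe sets of transporters and channels, with circles for the 7 control animals, triangles for the 8 high-oleic animals, horizontal bars for the means and vertical bars for the SD. Single animals or small groups of animals stand apart in SLC11A1, KCNMB1, SLC22A5, ATP10A, SLC1A1 and the dimmer probe set of SLC37A4, numbered (2), and the 2 diets overlap in all 8.

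Carriers of other organic solutes were 8 genes with 10 probe sets, 6 higher and 4 lower, with a median difference of 0.10. SLC22A5 (OCTN2), which imports the carnitine needed for fatty acid entry into mitochondria, ranged from 4.24 to 7.26 (median 4.52) in controls and from 4.46 to 7.58 (median 5.20) in high-oleic animals. Control animal 1 and high-oleic animal 2 were at 7.26 and 7.58, and the 13 others at 5.53 or below. The diets overlapped, with a difference of 0.47 (SE 0.45, unadjusted p = 0.313).

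SLC6A8, the creatine transporter, ranged from 7.17 to 10.12 (median 8.34) in controls and from 7.73 to 9.85 (median 8.08) in high-oleic animals. Its diet difference was 0.0094 (SE 0.46), and its high and low animals occurred in both diets. The named genes most like it were FGFR2 (r = 0.78), a fibroblast growth factor receptor, HOXA3 (r = 0.72), a homeobox factor, and VPS13C (r = 0.71), a lipid transfer protein. SLC44A2, a choline transporter-like protein, had differences of 0.29 (SE 0.30) and 0.31 (SE 0.28) in its brighter and dimmer probe sets, with overlapping diets. SLC33A1, which carries acetyl-CoA into the endoplasmic reticulum, ranged from 6.94 to 8.69, and SLCO3A1, an organic anion transporter, from 3.62 to 5.37. SLC16A13, of the monocarboxylate transporter family, ranged from 5.02 to 7.59, and SLC46A2 from 4.73 to 6.78. SLC46A3, a lysosomal carrier, had probe sets between 4.57 and 6.66 and between 3.75 and 5.59.

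Mitochondrial carriers were 7 genes with 8 probe sets, 5 higher and 3 lower, with a median difference of 0.08 and a median SD of 0.41. SLC25A3, the mitochondrial phosphate carrier, ranged from 2.49 to 4.58 (median 2.58) in controls and from 2.37 to 5.13 (median 2.59) in high-oleic animals. Both medians lay at the low end of all signals (lowest value 1.49), so this probe set may report the transcript poorly. Control animal 7 and high-oleic animals 6 and 8 were at 4.42 or above, and the 12 others at 3.31 or below. The named genes most like it, looked up after its values were seen, were RAB2A (r = 0.98), a GTPase of vesicle traffic, C5H12orf10 (r = 0.92) and HSP90AA1 (r = 0.89), a chaperone. SLC25A12, the aspartate-glutamate carrier of the malate-aspartate shuttle, lay between 6.02 and 7.38. SLC25A38, a glycine carrier for heme synthesis, lay between 7.82 and 9.32 in its brighter probe set. SLC25A14 and SLC25A30, relatives of the uncoupling proteins, lay between 3.93 and 5.41 and between 5.77 and 7.19. SLC25A36, a pyrimidine nucleotide carrier, lay between 6.42 and 8.38. SLC8B1, which takes calcium out of mitochondria in exchange for sodium, ranged from 3.18 to 4.13 (median 3.95) in controls and from 2.999 to 5.45 (median 4.01) in high-oleic animals, with high-oleic animal 8 highest.

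ABC transporters varied little, with SDs from 0.40 to 0.62. The 3 brightest of them were the probe sets of ABCD3, a peroxisomal transporter of fatty acyl-CoA, with means of 10.89, 10.08 and 10.01. All 3 were higher on average on the high-oleic diet, by amounts inside the spread. ABCA1, which hands cholesterol and phospholipid to apolipoprotein A-I, ranged from 8.36 to 9.58 (median 8.92) in controls and from 8.04 to 9.30 (median 8.65) in high-oleic animals. The diets overlapped, with a difference of -0.35 (SE 0.24, unadjusted p = 0.170). ABCG2, a multidrug and urate exporter, ranged from 8.29 to 9.87 in its brighter probe set and from 2.83 to 5.42 in its dimmer one, where high-oleic animal 2 lay below all others. Its 2 probe sets differed in the sign of the diet difference, so no direction can be given. ABCB1, the P-glycoprotein drug exporter, lay between 4.48 and 6.07. ABCB6, linked to porphyrin transport, lay between 5.26 and 6.84, and ABCD4, needed for cobalamin release from lysosomes, between 7.14 and 9.04.

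Among ATP pumps and flippases, ATP5L lay between 7.78 and 9.22, and ATP6V0A4, a membrane subunit of the proton pump of organelles and some cell surfaces, between 6.43 and 9.87. The brighter probe set of ATP8B1, a phospholipid flippase, lay between 5.83 and 7.08, and ATP9A, of the same family, between 6.08 and 8.22. ATP10A, another flippase, ranged from 2.88 to 5.16 (median 3.24) in controls and from 2.37 to 5.27 (median 3.18) in high-oleic animals. Control animal 1 and high-oleic animal 2 were at 5.16 and 5.27 and the 13 others at 3.74 or below, the same pair that stood apart in SLC22A5.

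KCNMB1, the beta subunit that tunes the large-conductance calcium-activated potassium channel of smooth muscle, ranged from 1.83 to 5.996 (median 1.94) in controls and from 1.86 to 4.03 (median 1.91) in high-oleic animals. Control animals 1 and 6 were at 5.991 and 5.996, high-oleic animal 8 at 4.03, and the 12 others at 2.85 or below. The medians of the 2 diets were nearly the same, but both lay near the lowest value of all signals (1.49). Their likeness therefore need not mean equal expression. The difference of -0.88 (SE 0.62, unadjusted p = 0.169) rested on the few animals with higher signals. CACNA2D1, an accessory subunit of voltage-gated calcium channels, ranged from 6.78 to 7.96 (median 7.16) in controls and from 5.88 to 7.52 (median 7.06) in high-oleic animals. The diets overlapped, with a difference of -0.38 (SE 0.27, unadjusted p = 0.176).

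AQP1, the water channel of capillary endothelium and red cells, ranged from 9.29 to 11.01 (median 10.15) in controls and from 9.39 to 11.24 (median 10.21) in high-oleic animals in its brighter probe set. Its dimmer one ranged from 4.03 to 6.33 (median 5.74) and from 4.15 to 6.41 (median 5.58). The differences were -0.0041 (SE 0.29) and -0.07 (SE 0.37), and their sign changed with live weight in the fit, to 0.075 and 0.25.

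For 9 genes, 19 probe sets gave 11 pairs that measure the same gene. The correlation over the 15 animals was between 0.42 (SLC46A3) and 0.96 (ABCD3), with a median of 0.87. In permutation tests over these 11 pairs, Benjamini-Hochberg adjustment left 10 under 0.05 by Pearson's r and 9 by Spearman's rho. The sign of the diet difference agreed in 10 of the 11 pairs. Between probe sets of different genes, 1367 pairs had a median r of 0.0043, from -0.81 to 0.91. The 2 probe sets of SLC37A4, AQP1, SLC44A2, SLC30A5 and ATP8B1 ordered the animals much alike, with r between 0.86 and 0.92. Both probe sets of a gene shared each array, and those of SLC37A4, AQP1, SLC44A2 and SLC25A38 also moved with the added control transcripts described below, whose part in this likeness was not tested.

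Control animals were heavier on average, so the slope on live weight was fitted at fixed diet, as the log2 change per 10 kg. No transporter or channel passed after adjustment, where the lowest adjusted p in limma with Benjamini-Hochberg adjustment was 0.916 and 0.0% of all probe sets passed. Before adjustment, 3 of the 53 (5.66%) had a p under 0.05, all rising, beside 124 of all probe sets (3.81%), of which 81 rose (2.49%). The median slope was 0.12 over the 53, with 33 rising and 20 falling, and 0.04 over all probe sets. By family, it was 0.10 for solute carriers, 0.15 for ABC transporters and 0.18 for ATP pumps and flippases. In the 10 animals between 109.5 and 118 kg, the median of solute carriers was 0.39 and that of ATP pumps and flippases -0.27. Without control animal 5, the heaviest pig, that of ABC transporters was 0.50, and 13 of the 53 slopes took the other sign.

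The 3 were SLC37A4, SLC3A1 and ATP8B1. The brighter probe set of SLC37A4 rose with a slope of 0.70 (SE 0.30, unadjusted p = 0.0318), and the dimmer one had a slope of 0.86 (SE 0.43, unadjusted p = 0.0604). The slopes were 0.70 and 0.89 when the heaviest pig, control animal 5 at 133 kg, was left out. SLC3A1, which forms the carrier of cystine and dibasic amino acids with a light chain, ranged from 5.87 to 7.69 in controls and from 5.78 to 7.48 in high-oleic animals, and its slope was 0.61 (SE 0.27, unadjusted p = 0.0358). The dimmer probe set of ATP8B1 had a slope of 0.55 (SE 0.26, unadjusted p = 0.0448), which was -0.10 without control animal 5, and the brighter one had a slope of 0.23 (-0.10 without that animal).

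**Figure D4:**
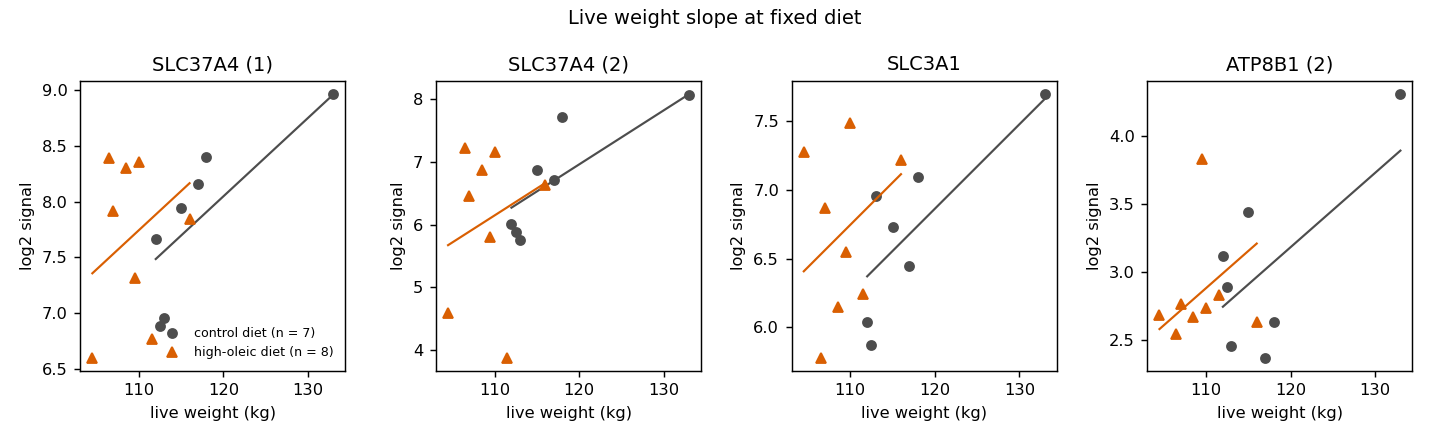
Log2 signal against live weight (kg) for the brighter (1) and dimmer (2) probe sets of SLC37A4, for SLC3A1 and for the dimmer probe set of ATP8B1, with circles for control animals, triangles for high-oleic animals and lines for the fitted slope at fixed diet. The heaviest animal, at 133 kg, has the highest signal in each panel, and the slope of ATP8B1 turns from 0.55 to -0.10 without it.

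The differences between animals were set against scores of cell type and response markers. A score is the mean over the measured markers of the log2 signal minus each marker's own mean, and none of the markers is a transporter or channel of the 53. The slope on each score was fitted at fixed diet, a choice made after the data had been seen. Of 15 macrophage markers 8 were measured (CD163, MRC1, CYBB, C1QA, C1QC, AIF1, TYROBP and FCER1G), and their score ranged from -0.16 to 0.19 in controls and from -1.27 to 1.37 in high-oleic animals. At an adjusted p under 0.05, 2 of the 53 rose with it, beside 215 of all probe sets (6.61%). SLC11A1 rose by 2.10 log2 units per unit of the score (SE 0.38, adjusted p = 0.00207 in limma with Benjamini-Hochberg adjustment). SLC8B1 rose by 0.74 (SE 0.16, adjusted p = 0.00803), a call that was lost without high-oleic animal 8 (adjusted p = 0.0940) or without high-oleic animal 4 (adjusted p = 0.0723). Without high-oleic animal 8, 1 of the 53 passed, SLC11A1, beside 2.89% of all probe sets.

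Over the 15 animals, the signal of SLC11A1 had r = 0.79 with the macrophage score (permutation p = 0.00037, adjusted 0.0265) and rho = 0.79 (permutation p = 0.00058, adjusted 0.0439). Without the 2 animals farthest from the median score r was 0.66, and within the diets it was 0.39 in controls, whose scores hardly differed, and 0.89 in high-oleic animals. SLC8B1 had r = 0.84 (permutation p = 0.00011, adjusted 0.0150) and rho = 0.91 (permutation p = 2e-05, adjusted 0.0053), with r = 0.65 without those 2 animals, 0.79 in controls and 0.90 in high-oleic animals. Adjustment was over 530 relations, of the 53 probe sets with 10 scores. The named genes most like SLC11A1 over the 15 animals were the chemokine receptor CCR1 (r = 0.98), SPP1 (osteopontin, r = 0.97) and LCP1, an actin-bundling protein of leukocytes (r = 0.96).

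Of 18 smooth muscle and pericyte markers 8 were measured, and their score ranged from -0.39 to 1.46 in controls and from -0.47 to 0.17 in high-oleic animals, highest in control animals 1 and 6. KCNMB1 was the 1 of the 53 that passed, beside 17 of all probe sets (0.522%), with a rise of 2.55 per unit of the score (SE 0.26, adjusted p = 8.26e-06 in limma). Without control animals 1 and 6 the slope was 2.22 and the adjusted p 0.398. As those 2 animals formed a cluster of their own, the correlation was taken over the 13 others. There r was 0.68 (permutation p = 0.00343) and rho 0.79 (permutation p = 0.00225). Adjusted permutation values were 0.0240 and 0.0157, over only 7 such relations picked after the data had been seen, not the 530 above. High-oleic animal 8 had the highest score of these 13 (0.17) and the highest KCNMB1 signal (4.03), and r without it was not taken. In the same 13, KCNMB1 also rose with the signal of added control transcripts (slope 0.86, adjusted p = 0.0270 in limma), beside 15.7% of all probe sets. Over all 15 animals that slope was 0.42 (adjusted p = 0.647). The KCNMB1 medians of the diets, 1.94 and 1.91, lay near the lowest value of all signals (1.49). The named genes most like KCNMB1 were CNN1 (r = 0.98), TAGLN (r = 0.96) and TPM2 (r = 0.95), all 3 of them contractile or actin-binding genes on that marker list.

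Of 12 interferon response genes 11 were measured, and the score of control animal 1 was 3.20 and that of high-oleic animal 2 was 2.91, against -1.12 to 0.27 in the 13 others. At an adjusted p under 0.05, 3 of the 53 changed with it, beside 166 of all probe sets (5.1%). SLC22A5 rose by 0.66 (SE 0.10, adjusted p = 0.00017 in limma), ATP10A rose by 0.51 (SE 0.10, adjusted p = 0.00214) and the dimmer probe set of AQP1 fell by 0.42 (SE 0.11, adjusted p = 0.0367). The brighter probe set of AQP1 had a slope of -0.29 (adjusted p = 0.0872). Without these 2 animals 0 of the 53 passed, beside 0.0307% of all probe sets, and the slopes were -0.087 for SLC22A5, -0.10 for ATP10A and -0.15 for the dimmer probe set of AQP1. Over the 13 others, r was 0.19 for SLC22A5 (permutation p = 0.519), -0.13 for ATP10A (permutation p = 0.677) and -0.15 for the dimmer probe set of AQP1 (permutation p = 0.618). The relation of these 3 genes to the interferon score therefore rested on 1 animal of each diet. With either of these animals left out alone, 1 of the 53 passed, SLC22A5 keeping an adjusted p of at most 0.0413 over all leave-one-out fits. In the 13 others ATP10A lay between 2.37 and 3.74, toward the low end of all signals (lowest value 1.49), where a relation could be missed.

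The named genes most like SLC22A5 were LGALS9 (r = 0.93), USP18 (r = 0.92) and IRF7 (r = 0.92), all known to be induced by interferon. For ATP10A, looked up after its values were seen, they were PLAC8 (r = 0.96), IRF7 (r = 0.91) and CASP1 (r = 0.91). USP18 is itself a marker of the interferon score. All these r were taken over the 15 animals, including the 2 of highest interferon score. SLC22A5 and ATP10A also rose with the score of 3 of 14 lymphocyte markers, with adjusted p-values of 0.0150 and 0.0337 in limma, beside 2.95% of all probe sets. These markers (CD3E, CD2 and CD8A) were dim, with mean log2 signals of 2.67, 3.84 and 4.33, against a median of 6.54 over all probe sets. That score too was highest in those animals, 0.81 in the control and 1.19 in the high-oleic animal. Without either of them, without both, or without the 2 animals of highest smooth muscle score, 0 of the 53 passed for lymphocytes, beside 0.0307% to 0.584% of all probe sets.

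**Figure D5:**
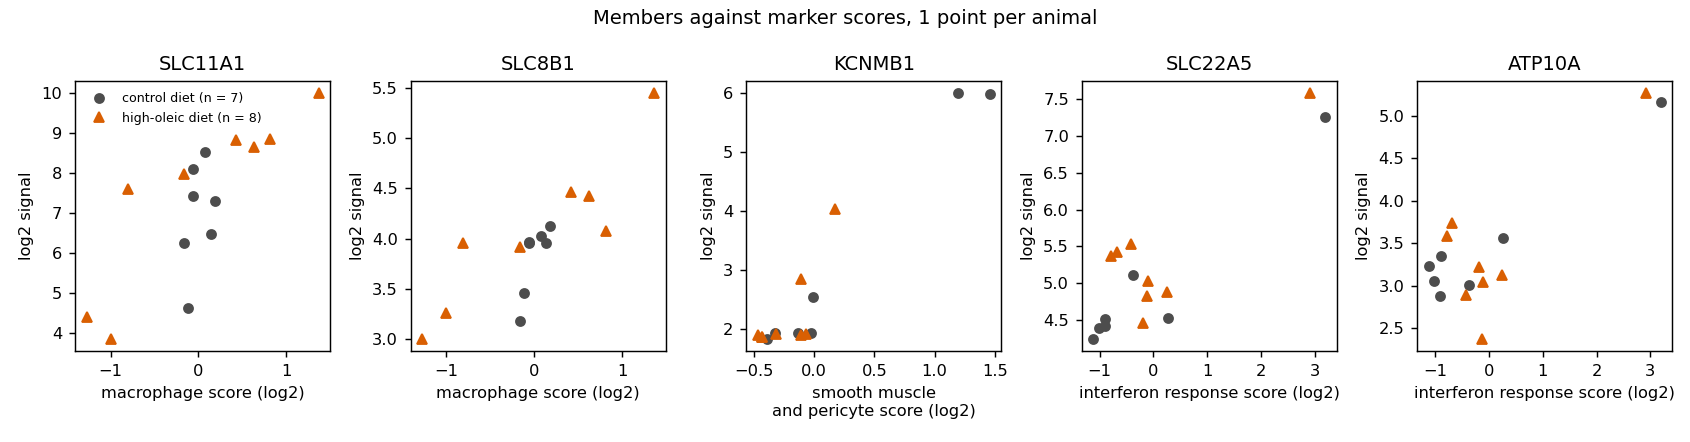
Log2 signal of 5 transporters and channels against a marker score (log2), 1 point per animal, with circles for control and triangles for high-oleic animals. SLC11A1 and SLC8B1 rise over the range of the macrophage score, whereas KCNMB1, SLC22A5 and ATP10A are highest in 2 animals each, with scores up to 1.46 for smooth muscle and 3.20 for interferon.

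No transporter or channel passed for the skeletal muscle score, beside 22 of all probe sets (0.676%), although that score ranged from -2.11 to 3.10. The highest correlations with it were those of the brighter and dimmer probe sets of SLC37A4 (r = 0.54 and 0.48) and of SLC2A4RG (r = 0.44). The lowest were those of SLC2A3 (r = -0.41), SLC46A3 (dimmer probe set, r = -0.38) and SLC22A5 (r = -0.33), and the lowest adjusted permutation p was 0.366. With that score in the fit, the live weight slopes of SLC37A4 were 0.50 and 0.59. For the erythroid score (3 of 11 markers), 0 of the 53 and 0.0% of all probe sets passed. The highest correlations were those of SLC46A3 (brighter probe set, r = 0.59), ABCD3 (dimmest probe set, r = 0.54) and ATP9A (r = 0.52), and the lowest those of ATP8B1 (r = -0.53 and -0.49) and ABCB1 (r = -0.52), with a lowest adjusted permutation p of 0.240. The 2 probe sets of SLC46A3 differed, as its dimmer one had r = 0.07 with the erythroid score and its brighter one r = 0.23 with the skeletal muscle score. For the scores of endothelium (3 of 10 markers, 0.0% of all probe sets), adipocytes (3 of 13, 0.0307%) and fibroblasts and matrix (5 of 10, 0.154%), 0 of the 53 passed. The endothelium score ranged only from -0.55 to 0.42, and its marker KDR had a mean log2 signal of 2.70.

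Added control transcripts gave a signal that does not come from genes of the pigs. Whether it reflects the arrays or earlier steps such as labelling was not tested. The mean over 7 probe sets for Bacillus transcripts, centred in the same way, ranged from -0.72 to 0.21 in controls and from -0.66 to 1.38 in high-oleic animals, highest in high-oleic animal 8. At an adjusted p under 0.05, 17 of the 53 probe sets, of 13 genes, moved with it, 15 rising and 2 falling, beside 735 of all probe sets (22.6%). The lowest p-values were those of the dimmer and brighter probe sets of SLC37A4, with slopes of 1.53 (SE 0.32, adjusted p = 0.00773 in limma) and 1.04 (SE 0.24, adjusted p = 0.00897). SLC25A3 rose by 1.22 (SE 0.30, adjusted p = 0.0119 in limma). Both probe sets each of SLC44A2, AQP1 and SLC25A38 rose too, and SLC33A1 and the brightest probe set of ABCD3 fell. Without high-oleic animal 8, 0 of the 53 passed, beside 0.0307% of all probe sets. The slopes of SLC37A4 were then 1.97 and 1.39, both with an adjusted p of 0.0616. With this signal in the fit, the live weight slopes of SLC37A4 were 0.52 and 0.48, and its part in the differences between animals was not tested otherwise.

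A list of 141 other genes of transport, whose symbols the rule does not catch, had 17 genes with 23 probe sets in the table. The list, LRRC8A included, was chosen with earlier results of these data known, so its counts are descriptions and no test. The mean was higher in high-oleic animals for 15 and lower for 8, and the median difference was 0.22, against -0.03 over all probe sets tested. Before adjustment, 2 of the 23 had a p under 0.05 for diet, beside 3.93% of all probe sets, both of them LRRC8A, the essential subunit of the volume-regulated anion channel, and 0 for live weight. The brighter probe set of LRRC8A ranged from 3.98 to 5.13 (median 4.82) in controls and from 4.88 to 6.73 (median 5.43) in high-oleic animals. The dimmer one ranged from 3.53 to 4.57 (median 4.09) and from 4.25 to 5.82 (median 4.63). The lowest high-oleic animals overlapped the highest controls in both. The differences were 0.86 (SE 0.28, unadjusted p = 0.00603) and 0.88 (SE 0.28, unadjusted p = 0.00566), with an adjusted p of 0.999 in limma, so LRRC8A did not pass.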

How the data were processed

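Per the submitters' processing notes, the authors used GCOS and GCRMA. No version of either tool is stated in the labels or headers. The authors deposited 1 table of log2 values for 3272 probe sets, and the log2 scale was read from the values. Labels gave diet, animal number and live weight. GEO's platform annotation named probe sets, 1455 with 1 symbol, 27 with several and 1773 with none.

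The 17 manufacturer controls were left out. The others were fitted without further normalization in limma 3.58.1 under R 4.3.3 (lmFit, eBayes), as high-oleic minus control, as live weight slope at fixed diet, and as slopes on marker scores at fixed diet. Tests were two-sided, adjusted over 3255 probe sets by Benjamini-Hochberg at 0.05. Correlations used 100000 permutations. Nothing says whether animals shared pens. The p-values treat the animals as independent, and those for diet could be too small if pens were shared within a diet. Fits were tested on simulated data.

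Members, marker lists and the list of other transport genes were chosen with earlier results of these data known. Named were members at an unadjusted p under 0.05, the 5 largest SDs with their 3 most similar genes, all of small families, the 3 brightest of larger ones, genes with several probe sets, and extremes of score correlations, and other members are described by their range. The score slopes, the spiked signal as a covariate and fits without 2 animals of highest scores were chosen after seeing the data. Alternatives tried were quantile normalization, median centring, a filter on dim probe sets, live weight as a covariate, a live weight window, a replicate block, other variance models, array weights, an exact permutation test and leaving out each animal.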

Additional observations from a re-analysis of the deposited data

Results flagged for a closer look

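In each diet, the highest and the lowest animal of every probe set was compared with its neighbour by Dixon's criterion. Over 106 such groups, 11 values of 6 animals stood apart (10.4%), where chance would give about 5.3, or 1 in 20. The same check over all probe sets tested gave 910 of 6510 groups. Control animal 1 stood above the other controls in SLC22A5 (7.26, the others from 4.24 to 5.11), in ATP10A (5.16, the others from 2.88 to 3.56) and in SLC25A30 (7.01, the others from 6.37 to 6.499). High-oleic animal 2 stood above its group in SLC22A5 (7.58, the others from 4.46 to 5.53) and in ATP10A (5.27, the others from 2.37 to 3.74). The same animal stood below it in the dimmer probe set of ABCG2 (2.83, the others from 4.19 to 5.41). Control animal 7 stood above in SLC25A3 (4.58, the others from 2.49 to 2.99) and in SLC25A14 (5.08, the others from 4.38 to 4.64). High-oleic animal 8 stood above in KCNMB1 (4.03, the others from 1.86 to 2.85), and high-oleic animal 4 in the dimmer probe set of ATP8B1 (3.83, the others from 2.54 to 2.83). High-oleic animal 1 stood below in SLC16A13 (5.02, the others from 5.91 to 6.58). The causes were not tested.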

How the results depend on the processing

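Adjusted calls for diet and live weight stayed at 0 of the 53 in all alternatives run. The count at an unadjusted diet p under 0.05 was 2 in the live weight window (4.85% of all probe sets), and 1 with the replicate block (5.96%), array weights (6.05%) or the spiked signal (5.28%). It was 0 to 1 when leaving out each animal (2.8% to 5.44%). For live weight that count was 1 with median centring (3.66%) or the skeletal muscle score (2.27%), 0 in the window (4.15%) and 0 with the replicate block (2.33%). When leaving out each animal it was 0 to 5 (2.73% to 7.71%). The median slope was 0.31 in the window and 0.085 to 0.28 when leaving out each animal (0.11 to 0.50 for ABC transporters, 0.021 to 0.27 for solute carriers, -0.071 to 0.20 for ATP pumps and flippases). Same-numbered animals correlated between -0.16 and 0.30, which gave no sign that the numbers pair the animals. Low correlations of signals cannot exclude a pairing. Score calls when leaving out each animal were 1 to 2 for macrophage (2.37% to 8.2% of all probe sets) and 1 to 4 for interferon (2.0% to 5.93%). They were 1 for smooth muscle (0.215% to 0.553%) and 0 to 17 for the spiked signal (0.0307% to 23.6%). Interferon calls were 0 without the 2 animals of highest interferon score (0.0307%) and 0 without those of highest smooth muscle score (1.94%). Smooth muscle calls were 0 without its 2 animals (0.0%). Spiked calls were 9 with quantile normalization (16.4%) and 11 with median centring (18.6%). Of the 53 diet differences, 12 changed sign in the window, 11 with live weight and 11 with the spiked signal. Of the 53 slopes, 22 changed sign with the replicate block, 15 in the window and 13 without control animal 5. Among members named with a value, directions turned for the diet difference of SLC11A1 (-0.94 in the window) and SLC38A1 (-0.034 in the window). They turned for SLC37A4 with live weight as a covariate (0.40 and 0.048), and when leaving out each animal (-0.33 to 0.020 for the brighter probe set). SLC6A8 turned to -0.011 with quantile normalization, -0.18 with the replicate block, -0.0046 with array weights and -0.29 with the spiked signal, and lay between -0.22 and 0.27 when leaving out each animal. AQP1's brighter probe set turned to 0.00048 with quantile normalization, 0.0040 with median centring, 0.075 with live weight, 0.012 in the window and 0.018 with the skeletal muscle score, and its dimmer one to 0.25 with live weight and 0.12 in the window. When leaving out each animal they lay between -0.17 and 0.12 and between -0.32 and 0.11. ATP8B1's slopes were -0.59 and -0.82 in the window, and -0.10 to 0.30 and -0.10 to 0.67 when leaving out each animal. The interferon slopes of SLC22A5 and ATP10A turned to -0.087 and -0.10 without the 2 animals. The causes were not tested. Array number, dim signals and the preselected table limit what could be seen.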
